A study of Mus musculus with 6 samples.

Results

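Cyclins, cyclin-dependent kinases (CDKs), their inhibitors, E2F factors, pocket proteins, CDC25 phosphatases and minichromosome maintenance (MCM) proteins were taken from the RNA-seq table by gene symbol alone, which gave 58 of 24736 genes. They comprise the A, B, D and E cyclins, the numbered Cdk genes, Cdkn1b, the Cdkn2 genes, E2f1 to E2f8, Rb1, Rbl1, Rbl2, Cdc25a to Cdc25c and Mcm2 to Mcm10, without Cdkn1a and Cdkn1c. Cdkn2aip and Cdkn2aipnl came in through their symbols only and are not CDK inhibitors. The libraries compared were 3 of wild-type mouse embryonic stem cells (ESCs) at 0 h and 3 of epiblast-like cells (EpiLCs) at 48 h, all with a wild-type genotype and all from 1 XY line, HM1 TetON, in which rtTA, the doxycycline-dependent activator, is expressed from Rosa26. ESCs grew on mitotically inactivated feeders, which are mouse embryonic fibroblasts, with 10% serum and 1000 U/ml LIF, the cytokine that holds them undifferentiated. EpiLCs were made without serum or LIF in N2B27 medium that held 10 ng/ml bFGF and 5 µM LGK974, an inhibitor of the enzyme porcupine and thereby of WNT secretion.

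The cell cycle is driven by cyclins, which rise and fall and switch on their partner CDKs. D cyclins with CDK4 or CDK6, and E cyclins with CDK2, phosphorylate the pocket proteins RB1, RBL1 and RBL2, and these then let go of the E2F factors that control the genes of DNA replication. Licensing is the loading of the MCM2-7 helicase ring onto origins before S phase, and it decides where replication can start. Mouse ESCs are known for a short G1 phase, and the passage of the epiblast through implantation is a time of fast division.

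Totals of RSEM expected counts ranged from 16967741 to 28521848 in ESC libraries and from 30683164 to 35096210 in EpiLC libraries. Each EpiLC library was thus deeper than each ESC library, and ESC replicate 2 had the fewest counts. The smallest signal regarded as detected, 3 counts, corresponded to between 0.0855 and 0.177 in units of CPM (counts scaled to the library total), which covers counting error only. Levels are given as TPM (relative transcript abundance, scaled for transcript length), and differences as log2 fold changes of EpiLC over ESC from edgeR's quasi-likelihood test on counts, with p-values adjusted over all 14468 genes tested (Benjamini-Hochberg, threshold 0.05). A value in parentheses before an adjusted p is such a log2 fold change. The state of the cells was checked against markers: 6 of 7 pluripotency markers were lower and 6 of 6 epiblast markers were higher in EpiLCs, while Pou5f1 remained at 1335 ± 91.8 TPM (ESC) against 1451 ± 112 TPM (EpiLC) as mean ± SD (n = 3), and did not pass (0.072, adjusted p = 0.496). Markers of fibroblasts, the feeder cell type, differed between the ESC libraries. Feeders were taken away by letting them adhere to plastic before differentiation was begun, and the sources used here do not say whether the 0 h ESCs had passed this step. Summed over 16 such markers, TPM came to 595, 2331 and 222 for ESC replicates 1 to 3, with 169.7 to 209 in EpiLCs, 15 of the 16 were highest in replicate 2 and lowest in replicate 3 among the ESC libraries, 9 of the 15 tested were lower in EpiLCs, and Lum alone was at 0 in some libraries.

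Of the 58 genes, 55 passed the filter on low counts, and 11 of these were higher and 13 lower in EpiLCs, while 31 did not pass the test. The counts were 8 and 6 without EpiLC replicate 1, and 8 and 8 without EpiLC replicate 2. The 24 genes called are 43.6% of the members tested, against 45.4% of all genes tested, so that the members were called about as often as genes in general. In each direction the shares were also close, with 20% higher against 22.6% of all genes and 23.6% lower against 22.8%. Large changes were less common by count, without a test of that difference: 2 of 55 (3.64%) were called with an absolute log2 fold change above 1, against 20.2% of all genes tested, or 1 of 47 against 9.87% when only genes with a mean of at least 10 TPM are counted. Of the 24 changes called, 16 were smaller than 0.5 on the log2 scale. The median absolute log2 fold change was 0.31 over the members tested and 0.38 over all genes tested, and the signed medians were -0.078 and -0.0017. The TPM ranges of ESCs and EpiLCs did not overlap for 33 of the 55 members (60.0%, against 59.5% of all genes tested).

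**Figure D1:**
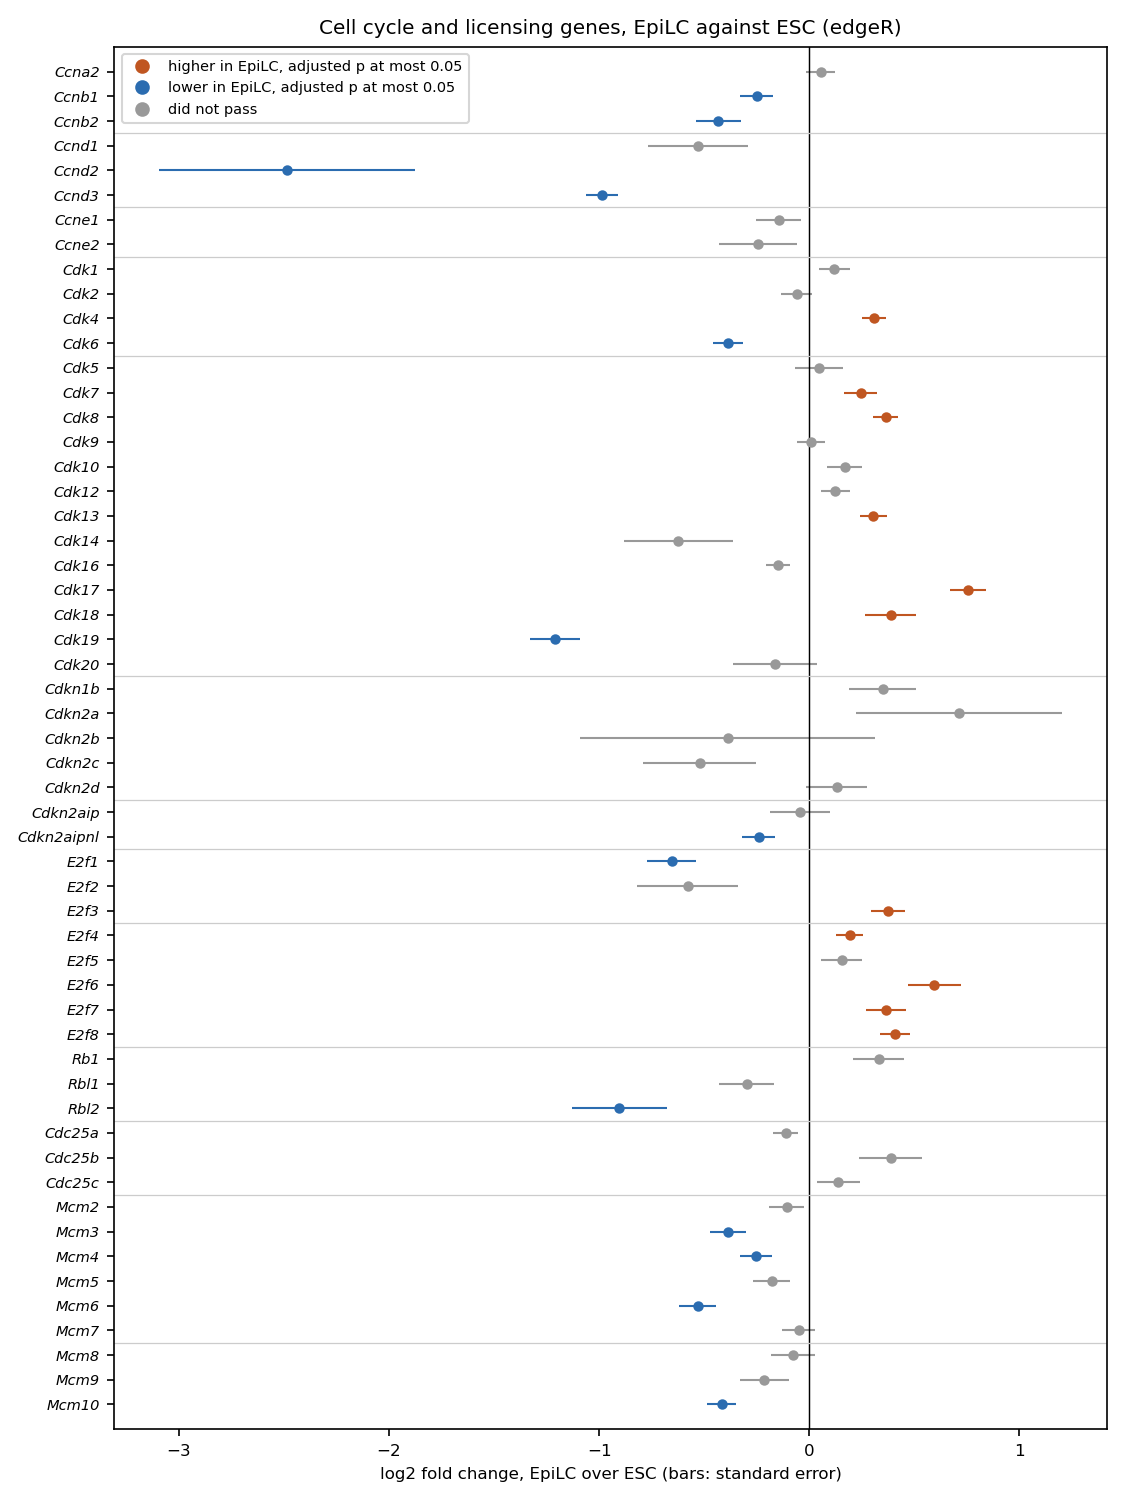
Log2 fold change of EpiLC over ESC (x axis) for the 55 members tested (y axis, grouped by role between grey lines), with standard errors from edgeR as bars and colours for genes that passed the adjusted p of 0.05. Most points lie within 0.5 of 0, with Ccnd2 (-2.49) and Cdk19 (-1.21) farthest out on the side of ESCs and Cdk17 (0.76) farthest out on the side of EpiLCs.

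Calls differed in how well they held. Across 15 fits, the one reported and 14 with another normalization, filter, tool or replicate design, or with 1 library left out, 13 of the 24 genes passed with the same sign each time. They are Ccnd3, Cdk6, Cdk19, E2f1, Mcm6 and Mcm10 among those lower in EpiLCs, and Cdk4, Cdk8, Cdk13, Cdk17, E2f3, E2f6 and E2f8 among those higher. The other 11 (Ccnb1, Ccnb2, Ccnd2, Cdk7, Cdk18, Cdkn2aipnl, E2f4, E2f7, Rbl2, Mcm3 and Mcm4) missed the threshold in at least 1 fit. In bulk libraries such as these, fewer cells of a type (or in a phase of the cycle) and less RNA per cell cannot be told apart.

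Of the 3 D cyclins, which answer to growth factors in G1, Ccnd2 and Ccnd3 fell and Ccnd1 did not pass. Ccnd3 (chromosome 17, 47505051 to 47599689 on GRCm38.p6, the RefSeq assembly of the mm10 build) was at 115, 125 and 123 TPM across ESC replicates 1 to 3, against 60.03, 62.8 and 67.4 TPM across EpiLC replicates 1 to 3. Every EpiLC library lay well below every ESC library, and Ccnd3 had a log2 fold change of -0.99 ± 0.075 (SE) at an adjusted p of 1.92e-04. Ccnd2 (chromosome 6, 127125162 to 127152188) was at 55.5, 128 and 22.1 TPM across ESC replicates 1 to 3, against 8.66, 17.2 and 12.1 TPM across EpiLC replicates 1 to 3. The groups did not overlap, but the ESC libraries spread over a 5.81-fold range that had the order of the fibroblast markers. Ccnd2 fell with a log2 fold change of -2.49 ± 0.61 (SE) at an adjusted p of 0.0151, which was -1.67 (adjusted p = 0.0156) without ESC replicate 2 and missed the threshold without EpiLC replicate 1 (adjusted p = 0.0612) and without EpiLC replicate 3 (adjusted p = 0.0573). Col1a1, a collagen of fibroblasts, was at 90.5, 489 and 28.3 TPM (ESC) against 6.63, 13.9 and 3.08 TPM (EpiLC), higher in each ESC library than in any EpiLC library. The markers did not all behave so. Of the 15 tested, 9 were lower in EpiLCs, and Col3a1, Dcn, Postn, Thy1, Acta2 and Tagln overlapped between the groups and did not pass. Thy1 was at 16.9, 35.1 and 10.0 TPM (ESC) against 20.1, 23.8 and 22.2 TPM (EpiLC). How far fibroblast RNA enters the Ccnd2 level was not tested.

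Ccnd1, the remaining D cyclin, was at 175, 209 and 105 TPM across ESC replicates 1 to 3, against 99.6, 118 and 132 TPM across EpiLC replicates 1 to 3. Its groups overlapped, since ESC replicate 3 was below 2 of the 3 EpiLC libraries, and its difference did not pass (-0.53, adjusted p = 0.107), although it did with DESeq2 (adjusted p = 0.0431) and without ESC replicate 3 (adjusted p = 0.00631). Summed over the 3 genes, D cyclin transcripts were at 345, 462 and 251 TPM over the ESC replicates and 168, 198 and 212 TPM over the EpiLC replicates, and the sum was lower in each EpiLC library than in each ESC library. Of that sum, Ccnd1 made up 45.9% ± 4.35 in ESCs and 60.4% ± 1.81 in EpiLCs (SD, n = 3), with no overlap between the groups (exact two-sided permutation test, p = 0.1, the smallest that 3 libraries against 3 allow, adjusted p = 0.2 over 4 family shares). Ccnd2 accounted for 17.5% ± 9.55 in ESCs and 6.52% ± 1.90 in EpiLCs, and Ccnd3 for 36.5% ± 11.4 in ESCs and 33.1% ± 2.25 in EpiLCs. By library, the Ccnd2 share was 16.1%, 27.7% and 8.81% (ESC) against 5.15%, 8.69% and 5.72% (EpiLC), so ESC replicate 3 almost met EpiLCs. Among ESC libraries the D cyclin sum had the order of the fibroblast markers. The part of fibroblast RNA in the sum and the shares was not tested.

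**Figure D2:**
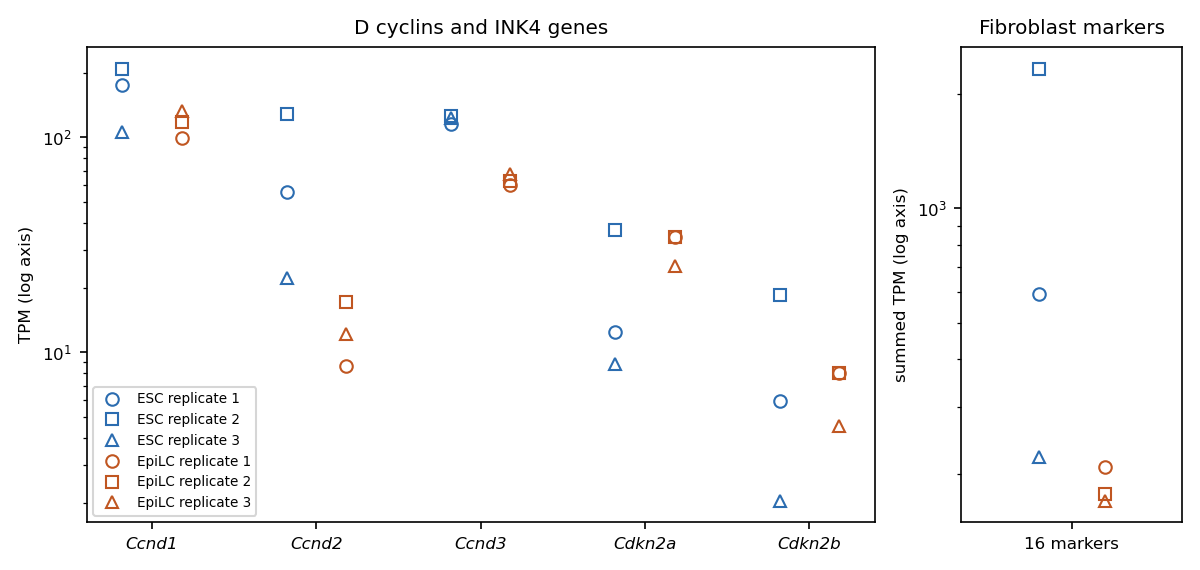
TPM of the D cyclins and of Cdkn2a and Cdkn2b (left, log axis) and the summed TPM of 16 fibroblast markers (right, log axis), with a point per library, ESCs in blue, EpiLCs in orange and the replicate number as the shape. Ccnd3 is tight and lower in EpiLCs, whereas Ccnd2, Cdkn2a and Cdkn2b differ widely among ESC libraries in the order of the fibroblast markers.

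E cyclins, which drive entry into S phase with CDK2, did not pass edgeR's test (0 of 2, against 45.4% of all genes called) or DESeq2's (0 of 2, against 44.5%). At an unadjusted p under 0.05 there were also 0 of 2 with each tool, and no share of all genes is given for that threshold. Ccne1 was at 194, 235 and 199.6 TPM across ESC replicates 1 to 3, against 178, 193 and 219 TPM across EpiLC replicates 1 to 3. These values overlap throughout, with a log2 fold change of -0.14 ± 0.11 (SE) at an adjusted p of 0.300. Ccne2 was far lower, at 33.04, 30.1 and 20.8 TPM (ESC) against 21.6, 23.4 and 28.5 TPM (EpiLC), and did not pass either (-0.24, adjusted p = 0.317). Of E cyclin TPM, Ccne1 made up 88.2% ± 2.57 in ESCs and 88.9% ± 0.394 in EpiLCs (SD, n = 3; exact two-sided permutation test, p = 0.8, adjusted p = 0.8 over 4 shares).

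Among the mitotic cyclins, Ccnb1 and Ccnb2, the activators of CDK1 at entry into mitosis, were lower in EpiLCs. Ccnb1 was at 399.9, 406 and 413 TPM across ESC replicates 1 to 3, against 357, 323 and 382 TPM across EpiLC replicates 1 to 3. The 3 EpiLC values were all below the 3 ESC values, by a small margin, with a log2 fold change of -0.25 ± 0.078 (SE) at an adjusted p of 0.0373. Ccnb2 was at 151, 127 and 161 TPM (ESC) against 113, 105 and 120.0 TPM (EpiLC), which again did not overlap, with a log2 fold change of -0.43 ± 0.11 (SE) at an adjusted p of 0.0169. Neither call was stable: each missed the threshold when some single libraries were left out, with adjusted p of up to 0.1099 for Ccnb1 and up to 0.0671 for Ccnb2, and neither passed without ESC replicate 1, EpiLC replicate 1 or EpiLC replicate 2. Ccna2, the A cyclin of dividing somatic cells, was at 181, 165 and 182 TPM (ESC) against 183, 187 and 199 TPM (EpiLC). All EpiLC values were above the ESC values by little, and the difference did not pass (0.055, adjusted p = 0.536). Ccna1 and Ccnb3, cyclins known from germ cells, were barely detected, with 1 to 8 and 0 to 4 expected counts per library, and were not tested.

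Of the CDKs that act in the cycle itself, Cdk4 and Cdk6, both partners of the D cyclins, changed in opposite directions. Cdk4 (chromosome 10, 127063535 to 127067288) was at 536, 529 and 513 TPM across ESC replicates 1 to 3, against 681, 645 and 702 TPM across EpiLC replicates 1 to 3. Every EpiLC library was above every ESC library, and Cdk4 had a log2 fold change of 0.31 ± 0.058 (SE) at an adjusted p of 0.00561. Cdk6 was at 15.9, 17.02 and 15.9 TPM (ESC) against 12.1, 12.8 and 13.7 TPM (EpiLC), lower in each EpiLC library, with a log2 fold change of -0.39 ± 0.072 (SE) at an adjusted p of 0.00534. Cdk4 outnumbered Cdk6 by far in both states, taking 97.00% ± 0.121 in ESCs and 98.1% ± 0.108 in EpiLCs (SD, n = 3) when their TPM are summed. Cdk1, the mitotic kinase, was at 109, 102 and 109 TPM (ESC) against 122, 112 and 128 TPM (EpiLC). Its EpiLC values lay just above the ESC values and the difference did not pass (0.12, adjusted p = 0.224). Cdk2 was at 83.2, 81.7 and 92.8 TPM (ESC) against 87.1, 88.7 and 82.2 TPM (EpiLC), overlapping between the groups (-0.060, adjusted p = 0.542), and its sign turned with limma on TPM and without ESC replicate 3.

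The other CDKs act mainly in transcription or in differentiated cells, and of the 13 tested 5 were higher and 1 was lower in EpiLCs, 46.2% called against 45.4% of all genes tested. Only 3 were higher without ESC replicate 1, ESC replicate 3, EpiLC replicate 1 or EpiLC replicate 3, and 2 were lower with DESeq2 or without ESC replicate 3. Cdk8 and Cdk19, the alternative kinases of the Mediator complex that links transcription factors to RNA polymerase II, went opposite ways. Cdk19 (chromosome 10, 40349287 to 40483818) was at 7.43, 8.12 and 8.84 TPM across ESC replicates 1 to 3, against 3.76, 3.82 and 3.35 TPM across EpiLC replicates 1 to 3. It fell without overlap between the groups, with a log2 fold change of -1.21 ± 0.12 (SE) at an adjusted p of 4.33e-04. Cdk8 was at 68.7, 63.9 and 64.9 TPM (ESC) against 85.2, 88.2 and 89.98 TPM (EpiLC), all EpiLC values being higher, with a log2 fold change of 0.36 ± 0.060 (SE) at an adjusted p of 0.00333. Of the summed TPM of the pair, Cdk8 went from 88.99% ± 1.14 in ESCs to 96.01% ± 0.349 in EpiLCs (SD, n = 3), a share looked at after the values were seen and not tested. The sum itself was 76.1, 71.97 and 73.7 TPM over the ESC replicates and 88.9, 92.00 and 93.3 TPM over the EpiLC replicates. The largest rise was that of Cdk17 (chromosome 10, 93160876 to 93251094), a kinase of the PCTAIRE group, which was at 24.5, 29.1 and 27.6 TPM across ESC replicates 1 to 3, against 47.5, 49.6 and 45.2 TPM across EpiLC replicates 1 to 3. The groups stood well apart, with a log2 fold change of 0.76 ± 0.084 (SE) at an adjusted p of 6.82e-04. Cdk18 of the same group was also called (0.39, adjusted p = 0.0361), but missed the threshold in 5 of the 6 fits that left out a library, and Cdk16, its other member, did not pass (-0.15, adjusted p = 0.0718). Cdk13, which phosphorylates the tail of RNA polymerase II, rose (0.31, adjusted p = 0.00838), and its partner in that role, Cdk12, did not pass (0.12, adjusted p = 0.168). Cdk7, the CDK-activating kinase, was called (0.24, adjusted p = 0.0400), but missed the threshold in 4 of the 6 fits that left out a library. Cdk5, Cdk9, Cdk10, Cdk14 and Cdk20 did not pass, with log2 fold changes from -0.62 (Cdk14) to 0.17 (Cdk10), although Cdk14 was called with DESeq2 (adjusted p = 0.0458) and without ESC replicate 3 (adjusted p = 0.0235) and Cdk10 with limma on TPM (adjusted p = 0.0398 at a pseudocount of 1). Cdk15, at 0 to 1 count per library, was not tested.

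Of the 5 CDK inhibitors, 0 passed edgeR's test (against 45.4% of all genes called) and 0 DESeq2's (against 44.5%). At an unadjusted p under 0.05 there were 0 and 1, and no share of all genes is given for that threshold. Their values did not run alike across libraries. Cdkn1b, which encodes p27, an inhibitor of cyclin E and CDK2, was at 31.5, 24.7 and 38.5 TPM across ESC replicates 1 to 3, against 42.3, 43.6 and 39.6 TPM across EpiLC replicates 1 to 3. The EpiLC values all exceeded the ESC values, ESC replicate 3 only just, and the difference did not pass (0.35, adjusted p = 0.113), although it did without ESC replicate 3 (0.53, adjusted p = 0.0129). The INK4 genes encode inhibitors of CDK4 and CDK6, and Cdkn2a also encodes ARF, which acts through p53. The 2 products share exons and were counted as 1 gene. Cdkn2a (chromosome 4, 89274473 to 89294619) was at 12.4, 36.9 and 8.81 TPM across ESC replicates 1 to 3, against 34.4, 34.4 and 25.3 TPM across EpiLC replicates 1 to 3. ESC replicate 2 was the highest of the 6 libraries, whereas the 2 other ESC replicates were below every EpiLC library. Over all libraries Cdkn2a had a log2 fold change of 0.71 ± 0.49 (SE) at an adjusted p of 0.267, and without ESC replicate 2 it had a log2 fold change of 1.54 with an adjusted p = 0.00218. Cdkn2b, its neighbour on the chromosome (chromosome 4, 89306289 to 89311032), was at 5.94, 18.5 and 2.04 TPM (ESC) against 8.03, 8.03 and 4.53 TPM (EpiLC). It showed the same order among ESCs over a 9.08-fold range and did not pass (-0.39, adjusted p = 0.676), with a sign that turned to 0.75 without ESC replicate 2.

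Ccnd2, Cdkn2a and Cdkn2b were the 3 tested members that differed at least 2-fold between ESC libraries, and all 3 had the order of the fibroblast markers (ESC replicate 2 highest and replicate 3 lowest). That order was shown by 7 of the 55 members tested (12.7%), the others being Ccnd1, Cdk7, Cdk9 and Cdkn2d, against 26.0% of all genes tested. The order together with at least a 2-fold range was shown by 3 of the 55 members, against 7.60% of all genes tested. The part of fibroblast RNA in the INK4 levels was not tested. The remaining INK4 genes were low and varied less. Cdkn2c was at 2.36, 1.91 and 1.65 TPM (ESC) against 1.08, 1.64 and 1.37 TPM (EpiLC), the groups barely apart (-0.52, adjusted p = 0.151). Cdkn2d was at 10.2, 10.6 and 9.89 TPM (ESC) against 12.4, 11.96 and 10.4 TPM (EpiLC), with overlap (0.13, adjusted p = 0.489). Of the genes with a similar symbol, Cdkn2aipnl was called slightly lower (-0.24, adjusted p = 0.0395), a call lost in 9 of the 14 other fits, and Cdkn2aip did not pass (-0.045, adjusted p = 0.816).

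Of the activator E2Fs, E2f1 fell and E2f3 rose. E2f1, an activator of replication genes, was at 23.8, 25.6 and 28.2 TPM across ESC replicates 1 to 3, against 16.01, 19.4 and 15.8 TPM across EpiLC replicates 1 to 3. It fell without overlap between the groups, with a log2 fold change of -0.66 ± 0.12 (SE) at an adjusted p of 0.00431. E2f3, an activator of the same subgroup, was at 33.99, 28.7 and 33.8 TPM (ESC) against 43.4, 44.5 and 42.1 TPM (EpiLC) and rose, with a log2 fold change of 0.38 ± 0.083 (SE) at an adjusted p of 0.0102. E2f2, the third activator, was low, at 4.59, 3.64 and 7.02 TPM (ESC) against 3.97, 3.61 and 3.57 TPM (EpiLC), with overlap, and did not pass (-0.58, adjusted p = 0.0881), although it was called without ESC replicate 2. The activators summed to 62.4, 57.95 and 69.1 TPM over the ESC replicates and 63.4, 67.5 and 61.5 TPM over the EpiLC replicates, overlapping between the groups. Within that total, the share of E2f3 went from 50.99% ± 3.07 in ESCs to 67.6% ± 1.48 in EpiLCs (SD, n = 3, not tested).

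All 5 E2Fs regarded as repressors had a positive log2 fold change, and 4 of them passed, against 22.6% of all genes called higher and 7212 of 14468 with a positive value. Without EpiLC replicate 2, 2 passed, where E2f4 and E2f7 were lost (adjusted p = 0.0712 for E2f7). E2f4, which binds DNA in resting and early G1 cells, was the most abundant E2F in every library, at 196, 208 and 211 TPM (ESC) against 229, 248 and 252 TPM (EpiLC). Its rise was small (0.19, adjusted p = 0.0477) and missed the threshold with median-ratio normalization (adjusted p = 0.0612) and in 5 of 6 fits without a library. E2f6, a partner of Polycomb proteins, was at 43.8, 35.1 and 32.6 TPM (ESC) against 62.2, 52.9 and 59.01 TPM (EpiLC), without overlap, with a log2 fold change of 0.60 ± 0.12 (SE) at an adjusted p of 0.00845. The atypical E2Fs, E2f7 and E2f8, which repress E2F targets without a DP partner, also rose: E2f7 was at 24.3, 19.98 and 23.1 TPM (ESC) against 28.3, 32.8 and 29.1 TPM (EpiLC) (0.37, adjusted p = 0.0190), and E2f8 at 30.4, 30.2 and 31.7 TPM (ESC) against 39.5, 44.9 and 42.8 TPM (EpiLC) (0.41, adjusted p = 0.00417). For both, every EpiLC value was above every ESC value. E2f5 was at 46.2, 40.96 and 40.3 TPM (ESC) against 53.4, 45.5 and 48.1 TPM (EpiLC), with overlap, and did not pass (0.15, adjusted p = 0.225). E2f4 to E2f8 together went from 338 ± 3.27 to 423 ± 9.38 TPM (SD, n = 3). Of all E2F TPM, the activators made up 15.7% ± 1.11 in ESCs and 13.2% ± 0.648 in EpiLCs (SD, n = 3), again without overlap (exact two-sided permutation test, p = 0.1, the smallest possible, adjusted p = 0.2 over 4 shares).

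**Figure D3:**
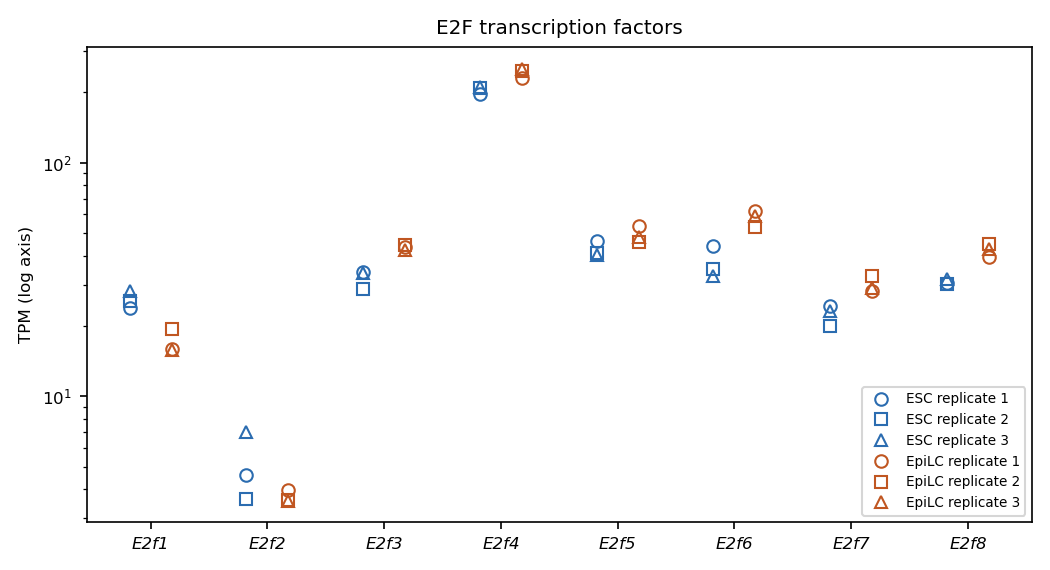
TPM of E2f1 to E2f8 (log axis), with a point per library, ESCs in blue, EpiLCs in orange and the replicate number as the shape. E2f1 is lower and E2f3, E2f4, E2f6, E2f7 and E2f8 are higher in every EpiLC library than in every ESC library, and E2f4 is the most abundant throughout.

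Pocket proteins bind E2Fs and hold their targets in check. Rbl2, which encodes p130, was at 3.23, 4.58 and 5.66 TPM across ESC replicates 1 to 3, against 2.62, 2.59 and 2.27 TPM across EpiLC replicates 1 to 3. It fell without overlap between the groups, with a log2 fold change of -0.90 ± 0.23 (SE) at an adjusted p of 0.0165, and missed the threshold when any single EpiLC library was left out (adjusted p of 0.0547 to 0.0615). Rb1 was at 11.7, 11.01 and 11.6 TPM (ESC) against 14.99, 17.3 and 12.5 TPM (EpiLC) and Rbl1, which encodes p107, at 19.6, 16.8 and 24.8 TPM (ESC) against 16.96, 17.2 and 16.9 TPM (EpiLC). Neither passed (Rb1 0.33, adjusted p = 0.0609, and Rbl1 -0.30, adjusted p = 0.102), although the Rb1 values did not overlap. Rb1 was called without EpiLC replicate 3 and with upper-quartile normalization, and Rbl1 without ESC replicate 2. Of pocket protein TPM, Rbl1 made up 55.9% ± 3.58 in ESCs and 49.6% ± 3.48 in EpiLCs (SD, n = 3; exact two-sided permutation test, p = 0.2, adjusted p = 0.267 over 4 shares).

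The CDC25 phosphatases remove the inhibitory phosphates from CDKs, and 0 of 3 passed edgeR's test (against 45.4% of all genes called) or DESeq2's (against 44.5%). At an unadjusted p under 0.05 there was 1 in each, and no share of all genes is given for that threshold. Cdc25a was at 91.2, 89.2 and 85.6 TPM (ESC) against 83.2, 82.9 and 89.00 TPM (EpiLC), with overlap (-0.11, adjusted p = 0.167). Cdc25b was at 13.9, 11.04 and 16.1 TPM (ESC) against 18.8, 20.1 and 17.02 TPM (EpiLC), without overlap (0.39, adjusted p = 0.0736), and passed with limma on TPM and without ESC replicate 3 (adjusted p = 0.0176). Cdc25c was at 23.01, 20.3 and 22.9 TPM (ESC) against 27.01, 23.8 and 24.8 TPM (EpiLC), all EpiLC values being above the ESC values (0.14, adjusted p = 0.301).

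The replicative helicase subunits Mcm2 to Mcm7 were among the most abundant members, and 3 of the 6 (50%) fell in EpiLCs, against 45.4% of all genes called in either direction and 22.8% called lower. Without EpiLC replicate 1 Mcm6 alone passed, with Mcm3 at an adjusted p of 0.0538, 2 of the 6 passed with upper-quartile normalization, and 4 passed without EpiLC replicate 3. Mcm6 (chromosome 1, 128331575 to 128359705) was at 338, 291 and 349 TPM across ESC replicates 1 to 3, against 230.3, 223 and 248 TPM across EpiLC replicates 1 to 3. Its highest EpiLC library was below its lowest ESC library, with a log2 fold change of -0.53 ± 0.089 (SE) at an adjusted p of 0.00351. Mcm3 was at 351, 309 and 364 TPM (ESC) against 263, 258 and 289.5 TPM (EpiLC) and fell without overlap, with a log2 fold change of -0.39 ± 0.087 (SE) at an adjusted p of 0.0110. Mcm4 was at 262, 225 and 252 TPM (ESC) against 207, 210.3 and 225 TPM (EpiLC), where ESC replicate 2 and EpiLC replicate 3 almost met (-0.25, adjusted p = 0.0314), and its call was lost with upper-quartile normalization and in 4 of the 6 fits without a library.

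The other 3 subunits of the ring did not pass. Mcm2 was at 271, 264 and 290.2 TPM (ESC) against 249, 255 and 289 TPM (EpiLC) (-0.11, adjusted p = 0.310). Mcm5 was at 319, 345 and 354 TPM (ESC) against 289.9, 296 and 346 TPM (EpiLC) (-0.18, adjusted p = 0.142), and was called without EpiLC replicate 3 (adjusted p = 0.0361). Mcm7 was at 395, 352 and 409 TPM (ESC) against 382, 369 and 407 TPM (EpiLC) (-0.050, adjusted p = 0.635), with a sign that turned with limma on TPM and without ESC replicate 3. For all 3 the groups overlapped. The 6 ring subunits summed to 1936, 1786 and 2016.8 TPM over the ESC replicates and 1621, 1612 and 1805 TPM over the EpiLC replicates. Within the sum, the share of Mcm6 went from 17.02% ± 0.641 in ESCs to 13.9% ± 0.238 in EpiLCs and that of Mcm7 from 20.1% ± 0.371 in ESCs to 22.99% ± 0.515 in EpiLCs (SD, n = 3, looked at after the values were seen and not tested). The groups did not overlap in either share.

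**Figure D4:**
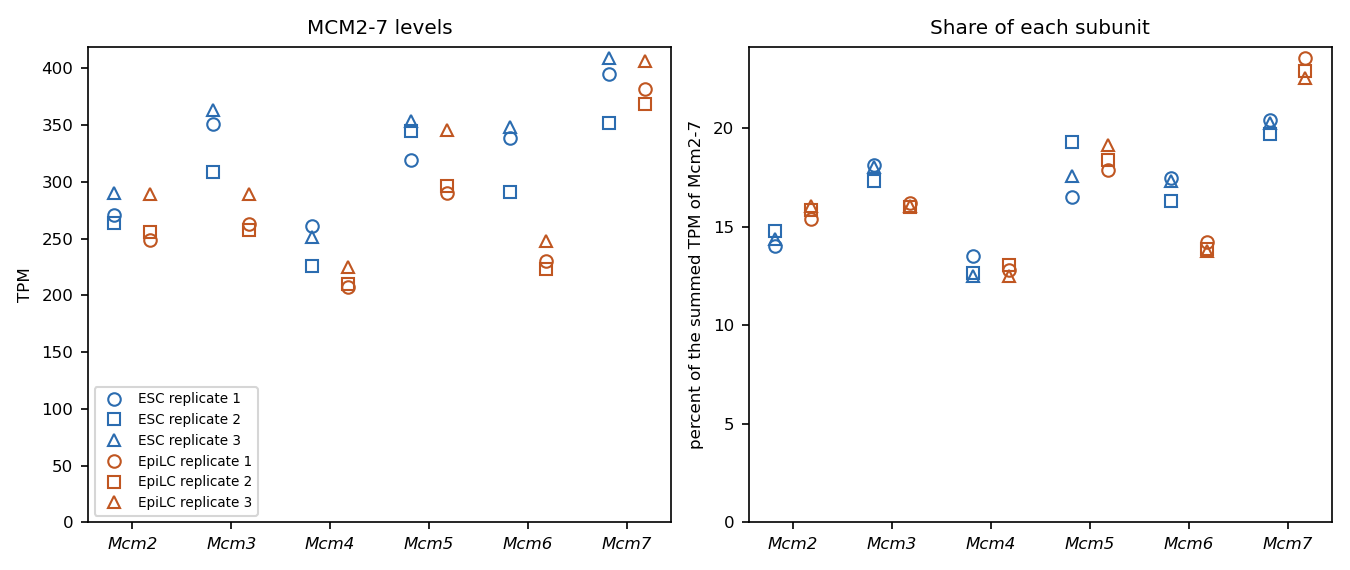
TPM of the 6 subunits of the MCM2-7 helicase (left) and the share of each in their summed TPM in percent (right), with a point per library, ESCs in blue, EpiLCs in orange and the replicate number as the shape. Mcm3, Mcm4 and Mcm6 are lower in every EpiLC library, and the share of Mcm6 is lower and that of Mcm7 higher in EpiLCs.

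Mcm10, which helps to turn the loaded helicase into an active one, was at 116, 105 and 112 TPM across ESC replicates 1 to 3, against 82.05, 85.98 and 90.5 TPM across EpiLC replicates 1 to 3. It fell without overlap, with a log2 fold change of -0.42 ± 0.068 (SE) at an adjusted p of 0.00321. Mcm8 and Mcm9, which act together in recombination, did not pass (Mcm8 -0.078, adjusted p = 0.569, and Mcm9 -0.21, adjusted p = 0.176).

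E2F sites are a known feature of MCM promoters, and the sequences are shown for a gene that fell, for genes of the same families that did not pass or rose, and for a pair of sites just inside a transcript. RefSeq promoter windows on GRCm38.p6, from 250 bases before to 50 bases after a start site, were found for 46 of the 58 members, without Ccna2, Ccnd1, Ccnd2, Ccne2, Cdk5, Cdk17, Cdk19, E2f4, E2f5, Rb1, Cdc25c and Mcm4. They were searched on both strands for the E2F words TTTCCCGC, TTTCGCGC, TTTGCCGC and TTTGGCGC, counting overlapping matches. A match was present for 13 of the 46 members (28.3%), against 704 of 27025 genes with a window (2.605%) and 2.26% of all windows of this length. Mcm3, Mcm5, Mcm6 and Mcm7 held one, 4 of the 5 ring subunits with a window. By call, the words were present for 2 of 10 lower members, 2 of 9 higher members and 9 of 24 members that did not pass. The words TTTGAA and TTCGAA of the cell cycle homology region, searched in the same way, were present for 11 of the 46 members (23.9%) and 21.7% of genes. A match is a description of letters and does not show binding. In the sequences that follow, read 5′ to 3′ on the gene's strand, capitals mark the E2F words or their reverse complements. They are the stretches before the start site of Mcm6, which fell (chr1:128359706-128359835, minus strand, with 3 words of which 2 overlap), of Mcm5, which did not pass with all libraries (chr8:75109339-75109463, plus strand, with 2 overlapping words), and of E2f3, which rose, at 1 of its 2 listed start sites (chr13:29986064-29986163, minus strand, with 1 word, the window of the other start site holding none), and 30 bases after the start site of Mcm3, which fell (chr1:20820267-20820296, minus strand, with 2 words).
Mcm6: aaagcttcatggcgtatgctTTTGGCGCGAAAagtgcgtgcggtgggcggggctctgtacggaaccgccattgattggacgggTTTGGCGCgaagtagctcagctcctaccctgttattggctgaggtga
Mcm5: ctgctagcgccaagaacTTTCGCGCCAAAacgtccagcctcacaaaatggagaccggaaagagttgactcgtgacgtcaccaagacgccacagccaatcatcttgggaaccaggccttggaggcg
E2f3: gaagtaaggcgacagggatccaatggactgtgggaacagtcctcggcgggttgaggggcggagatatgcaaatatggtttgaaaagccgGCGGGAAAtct
Mcm3: gtgGCGGGAAAacttgggaagtTTTGGCGC

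Around the members, 135 further genes of the same pathway in 5 lists were looked at, all of which were tested. Of these, 22 were higher and 29 lower in EpiLCs, 37.8% called against 45.4% of all genes tested, with a median log2 fold change of -0.022. Among 49 genes of the replication machinery 10 were higher and 10 lower, 40.8% called against 45.4% of all genes tested. The counts became 6 and 6 without ESC replicate 1, 8 and 6 without ESC replicate 3, 5 and 4 without EpiLC replicate 1, 6 and 4 without EpiLC replicate 2 and 6 and 10 without EpiLC replicate 3. Upper-quartile scaling left 10 higher and 6 lower, and with limma on log2(TPM + 1) 14 were higher and 8 lower. The licensing factors Cdt1, which loads the helicase, and Orc1, of the origin recognition complex, had the largest falls of this list. Cdt1 was at 175, 169 and 216 TPM across ESC replicates 1 to 3, against 108, 109 and 125 TPM across EpiLC replicates 1 to 3. These groups stood apart, with a log2 fold change of -0.76 ± 0.12 (SE) at an adjusted p of 0.00278. Orc1 had a log2 fold change of -0.74 ± 0.081 (SE) at an adjusted p of 6.74e-04. Other licensing genes of the list did not run alike. Orc5 (-0.30, adjusted p = 0.0285) and Gmnn (-0.24, adjusted p = 0.0462) were lower, and Orc4 was higher (0.20, adjusted p = 0.0407). Orc2, Orc3 and Orc6 did not pass, and neither did Cdc6 (0.0079, adjusted p = 0.935). The largest rises were those of Gins2 (0.57, adjusted p = 0.00348), a subunit of the active helicase, and Cdc7 (0.43, adjusted p = 0.0115), the kinase that fires licensed origins.

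Of 30 mitotic genes, 10 were lower and 1 was higher, and 22 had a negative log2 fold change (median -0.17). The 11 called are 36.7% of the list, against 45.4% of all genes tested. By direction, 22.8% of all genes were called lower and 22.6% higher, and 7256 of 14468 had a negative value. The sign count also moved between fits. A positive log2 fold change was found for 8 of the 30, against 12 with limma on TPM, 11 without ESC replicate 3 and 5 without ESC replicate 2. Cenpf, a kinetochore protein, had a log2 fold change of -0.68 ± 0.16 (SE) at an adjusted p of 0.0129, and Hmmr, a spindle protein, a log2 fold change of -0.61 ± 0.14 (SE) at an adjusted p of 0.0128. Aurkb, the kinase of the chromosomal passenger complex, was the gene that rose (0.25, adjusted p = 0.0165). The count of 10 lower genes was 3 without EpiLC replicate 1, and the count of 1 higher gene was 3 without ESC replicate 3 and 0 without ESC replicate 1, EpiLC replicate 1 or EpiLC replicate 2. With limma on TPM 3 were higher.

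The largest fall among the 135 genes was that of Mybl2, which encodes B-MYB, the activator that joins the MuvB complex at promoters of mitotic genes. Mybl2 was at 279.7, 298 and 354 TPM across ESC replicates 1 to 3, against 74.4, 76.1 and 89.9 TPM across EpiLC replicates 1 to 3. The EpiLC libraries were far below the ESC libraries, with a log2 fold change of -2.01 ± 0.12 (SE) at an adjusted p of 9.94e-05. Of the 12 genes in the list of E2F and MuvB partners, Tfdp1, the DNA-binding partner DP1 of the E2Fs, was the only one higher (0.36, adjusted p = 0.00807) and Mybl2 the only one lower, 16.7% called against 45.4% of all genes tested. There were 2 higher with DESeq2, with limma or with at least 10 counts in every library required, and 3 without ESC replicate 3, with 1 lower each time.

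Among 23 CDK partners and regulators, 5 were higher and 5 lower (3 lower without EpiLC replicate 1 or 2), 43.5% called against 45.4% of all genes tested. Cables1, a CDK-binding adaptor, and Cdk5r1, the activator p35 of CDK5, rose from low levels (Cables1 1.73, adjusted p = 0.00385, and Cdk5r1 1.10, adjusted p = 0.00285). Ccng2, a cyclin of arrested cells, and Ccnl1, a cyclin of splicing, fell (Ccng2 -0.74, adjusted p = 0.00638, and Ccnl1 -0.71, adjusted p = 7.37e-04). Of 22 genes of the ubiquitin ligases that degrade cell cycle proteins, 5 were higher, led by the cullins Cul4a (0.63, adjusted p = 2.84e-04) and Cul1 (0.41, adjusted p = 0.00708), and 3 were lower, 36.4% called against 45.4% of all genes tested. These counts were 3 and 2 without ESC replicate 1, EpiLC replicate 1 or EpiLC replicate 3, and 8 and 2 with limma on log2(TPM + 0.1). The 2 largest falls were those of Dtl (-0.55, adjusted p = 0.00371), the receptor that brings CDT1 to the CUL4 ligase, and Ddb1 (-0.29, adjusted p = 0.00385), its adaptor.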

How the data were processed

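Polyadenylated RNA was sequenced as 76 nt single-end, strand-specific reads. The authors trimmed reads with cutadapt 1.16 and, through STAR 2.5.2a and RSEM 1.3.0, deposited expected counts per RefSeq gene on mm10. The authors' deposited table also holds TPM values, which RSEM scales for transcript length and to 1000000 per library. Expected counts share reads that match several genes by estimate, and 57 of the 58 genes had whole counts in every library (E2f1 did not). No column of other samples was present.

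Counts were rounded and analysed with edgeR 4.0.16 (R 4.3.3): filterByExpr, TMM factors, the quasi-likelihood test over 14468 genes, and Benjamini-Hochberg adjustment. Libraries were 3 per group, all from 1 line. The p-values of edgeR set the difference between groups against the spread between libraries, which is estimated with information shared over genes. Shares of TPM used exact permutation tests over libraries. Alternatives were DESeq2 1.42.0, other normalizations, filters, a replicate block, limma 3.58.1 on log2(TPM + 1) and log2(TPM + 0.1), and leaving out each library. The edgeR, DESeq2 and limma fits were also run on simulated counts, and the outcome is not given here. The members, pathway lists and markers were chosen with earlier results of these data known. Values per library were given by a written rule: D and E cyclins, Ccna2, Ccnb1, Cdk1, Cdk2, Cdk4, Cdk6, Cdkn1b, INK4 genes, E2Fs, pocket proteins, CDC25 genes, Mcm2 to Mcm7 and any other member changed by at least 1 on the log2 scale. From each pathway list the rule named the 2 largest rises and falls among genes called with a mean of at least 1 TPM, which are given as log2 fold changes. Values per library of Ccnb2, Cdk8, Cdk17, Mcm10, Cdt1 and Mybl2 were added after their values were seen. Values of Col1a1, Thy1, Orc4, Orc5, Cdc6 and Gmnn were also given outside the rule. Positions and promoter windows are those of RefSeq on GRCm38.p6.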

Additional observations from a re-analysis of the deposited data

How the results depend on the processing

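Leaving out 1 library at a time gave 8 to 11 higher members (11 with all libraries) and 6 to 15 lower members (13), and 13 to 23 higher pathway genes (22) and 13 to 36 lower ones (29). The lowest counts of lower members came without EpiLC replicate 1 (6) and EpiLC replicate 2 (8). The pathway counts moved by over 1.5 times without these 2 libraries (13 and 17 lower) and, for higher genes, without ESC replicate 1 (14) and EpiLC replicate 1 (13). Over all genes, 4244 to 7181 were called with 1 library left out, against 6571 with all, and leaving out ESC replicate 2 gave the most. Under DESeq2, the other normalizations and filters, and limma, higher members numbered 10 to 13 and lower members 10 to 15. The deviations of same-numbered libraries from their group means had correlations of 0.00668, 0.186 and 0.171 over 14468 genes, and ESC replicates 2 and 3, but not ESC replicate 1, correlated best with the EpiLC library of their own number. This is a hint from the data, and with 1 correlation under 0.1 and no shared origin given in the labels the numbers were not taken to pair the libraries. With the replicate number as a block, 10 members were higher and 13 lower, 22 of them shared with the fit without a block (Cdk7 and Cdkn2aipnl were lost and Cdk14 was gained, at an adjusted p of 0.0218), and 20 and 28 pathway genes were called. Of the other CDKs, 4 were then higher and 2 lower. The mitotic gene Aurkb was lost (adjusted p = 0.0516), while Plk1 and Cdca8 were called higher. Of the E2F and MuvB partners, 2 were higher and 1 lower.

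The difference in the share of Ccne1 among E cyclins (0.709 percentage points) ranged from -0.671 to 1.88 points when 1 library was left out. Among the members and Pou5f1, 7 genes that did not pass turned sign under some alternative. Cdk2 went to 0.0025 with limma at either pseudocount and ranged from -0.103 to 0.017 when 1 library was left out, and Mcm7 went to 0.0040 with limma and ranged from -0.113 to 0.0088, both turning without ESC replicate 3. Cdkn2b went to 0.024 with the replicate block, to 0.044 and 0.12 with limma at pseudocounts of 1 and 0.1, and ranged from -0.859 to 0.75 when 1 library was left out, turning without ESC replicate 2. Cdkn2aip went to 0.016 and 0.017 with limma and ranged from -0.17 to 0.036 with 1 library left out, turning without ESC replicate 1 (0.031), ESC replicate 3 (0.010) or EpiLC replicate 2. Cdk9 went to -0.0015 with median-ratio normalization and ranged from -0.039 to 0.044, Cdk5 ranged from -0.014 to 0.12 and Pou5f1 from -0.0064 to 0.13. The causes were not tested. At 16967741 to 35096210 counts per library, Ccna1, Ccnb3 and Cdk15 did not pass the filter on low counts (without the filter they were tested and not called), and Cdkn2c (30 to 44 counts), Cdkn2b (37 to 198) and Cdk20 (53 to 120) were tested at low counts.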
